A study of Mus musculus with 6 samples.

Results

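The genes described here encode Nrf2 and the proteins that pair with it, compete with it or mark it for destruction. Members were taken by gene symbol. They are *Nfe2l2*, *Nfe2l1*, *Keap1*, *Cul3*, *Bach1*, *Maff*, *Mafg*, *Mafk* and *Sqstm1*, and each of the 9 symbols had a row in the files, which list 17193 genes. The measurements are FPKM values, that is fragment numbers scaled to transcript length and library size, from RNA sequencing of brain astrocytes of wild-type C57BL/6 mice aged 3 months. One group was mock-treated (called saline in the tables of the study) and the other received quinpirole, an agonist of the dopamine D2 receptor (DRD2), with 3 libraries in each group. The cells were collected with microbeads against ACSA-2, an astrocyte surface antigen. The labels give neither the dose nor the duration of quinpirole in these mice, and do not say whether a library stands for 1 mouse or for a pool, so p-values measure only the spread between these libraries.

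Nrf2, the product of *Nfe2l2*, is a basic leucine zipper transcription factor of the cap'n'collar (CNC) family. In resting cells the adaptor Keap1 binds Nrf2 and presents it to the Cul3 ubiquitin ligase, which keeps the protein short-lived. When Keap1 is modified by electrophiles, or is drawn off by the autophagy receptor p62 (*Sqstm1*), Nrf2 accumulates, pairs with a small Maf protein (MafF, MafG or MafK) and binds antioxidant response elements (AREs) near genes of glutathione synthesis, quinone reduction and iron handling. Bach1 pairs with the same small Mafs and represses many of the same elements, and Nrf1 (*Nfe2l1*) is a relative held in the endoplasmic reticulum that activates proteasome genes after proteolytic release. Astrocytes are known as the main site of this antioxidant program in the brain. Much of the control of Nrf2 acts on the protein, which mRNA levels do not show.

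The ARE is bound by the CNC and small Maf factors among these products, and not by Keap1, Cul3 or p62. For all 9 genes, the windows from 250 bases before to 50 bases after each annotated start site were searched on both strands for TGACNNNGC, the core of the ARE. RefSeq (GRCm38.p6) gave 15 windows for the 9 genes. The letters occurred in 4 of the 15 windows, those of *Nfe2l2*, *Maff*, *Mafg* and *Mafk*, whereas 12.4% of all 32851 windows hold them. No window of *Nfe2l1*, *Keap1*, *Cul3*, *Bach1* or *Sqstm1* did. A match is a description of the letters only. The windows of *Maff* and *Mafg* are shown in full because these genes moved in opposite directions between the groups, and for *Nfe2l2* and *Mafk* only the stretch around the match is shown. All are on the strand of the gene, with the match in capitals, written as its reverse complement where it lies on the other strand.
Maff, chr15:79346371-79346670, plus strand: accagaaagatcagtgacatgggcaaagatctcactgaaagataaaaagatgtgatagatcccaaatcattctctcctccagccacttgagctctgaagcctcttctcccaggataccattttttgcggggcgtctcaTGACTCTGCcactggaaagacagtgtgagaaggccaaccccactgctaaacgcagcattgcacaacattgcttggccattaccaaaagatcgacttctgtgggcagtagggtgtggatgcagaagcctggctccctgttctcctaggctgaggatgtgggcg
Mafg, chr11:120633498-120633797, minus strand: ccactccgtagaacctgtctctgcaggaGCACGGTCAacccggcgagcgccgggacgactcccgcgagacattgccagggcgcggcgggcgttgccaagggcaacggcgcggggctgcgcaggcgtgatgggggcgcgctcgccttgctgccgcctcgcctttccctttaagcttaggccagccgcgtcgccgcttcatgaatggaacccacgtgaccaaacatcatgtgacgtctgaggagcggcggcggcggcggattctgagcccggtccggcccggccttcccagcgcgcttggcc
Nfe2l2, chr2:75704870-75704913, minus strand: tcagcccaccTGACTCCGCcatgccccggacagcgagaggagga
Mafk, chr5:139791497-139791556, plus strand: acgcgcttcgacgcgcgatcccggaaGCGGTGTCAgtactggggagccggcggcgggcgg

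Counted from the start site, the match began at position -112 for *Maff*, -222 for *Mafg*, -240 for *Nfe2l2* and -13 for *Mafk*. *Maff* has 3 annotated start sites, and the match lies at the most upstream of them. The files give 1 value per gene and do not tell start sites apart.

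The files hold no read counts. From the steps of the lowest values, depth was estimated at 22300000 to 27400000 fragments per library, with the lowest value in quinpirole 3. The sum of FPKM was 401769 to 413730 in mock libraries and 425244 to 437164 in quinpirole libraries. All 10 astrocyte markers passed a mean of 1 FPKM, with summed levels of 1482 to 1640.0 FPKM after mock treatment and 1469.9 to 1500.1 FPKM after quinpirole, and 3 of them, among them *Atp1b2*, which encodes the antigen used for the isolation, were lower after quinpirole by the test described in the next paragraph. Markers of other cells were present as well. The summed FPKM of 8 microglial markers was 665 to 703 in mock and 707 to 770.4 in quinpirole libraries, so the groups did not overlap. The mural list was carried by *Acta2* (2518 to 2689.7 FPKM in mock and 2709.6 to 2881 FPKM in quinpirole libraries), which was not past the threshold (adjusted p = 0.171 from limma), while *Pdgfrb* of the same list fell from 26.2 to 21.2 FPKM on average (log2 fold change -0.30, adjusted p = 0.0227 from limma) and *Rgs5* had a mean under 1 FPKM. The ependymal list had sums of 129.6 to 144 and 126 to 135 FPKM, mostly from *Foxj1*. Oligodendrocyte sums were 158 to 178 and 165 to 176 FPKM, mostly from *Cnp*, with *Mog*, *Mag* and *Mobp* under 1 FPKM. Neuronal sums were 46.3 to 47.9 and 45.7 to 50.5 FPKM, mostly from *Map2* and *Tubb3*, with *Rbfox3*, *Snap25* and *Syt1* under 1 FPKM. Endothelial sums were 7.70 to 8.07 and 6.23 to 7.21 FPKM, which did not overlap, mostly from *Kdr*, with *Pecam1*, *Tek* and *Cdh5* under 1 FPKM. No gene of these last 4 lists was past the threshold. The part of these other cells in the results was not tested.

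Groups were compared with limma on log2(FPKM + 1) over the 12255 genes with a mean of at least 1 FPKM, with Benjamini-Hochberg adjustment over all of them and a threshold of 0.05. All 9 members passed this filter. Of all tested genes, 10.9% were past the threshold, 5.74% higher and 5.18% lower after quinpirole. With quantile normalization 6.39% were, 2.31% higher and 4.08% lower. Of the 9 members, 4 were past it: *Maff* and *Sqstm1* rose, and *Mafg* and *Nfe2l1* fell. *Nfe2l2*, *Keap1*, *Cul3*, *Bach1* and *Mafk* were not past it. After correction for a trend of the fold change with transcript length, 4.16% of tested genes were past the threshold (2.09% higher and 2.07% lower), and after correction for length and GC content 3.07% were (1.53% higher and 1.54% lower). With either correction 1 member, *Mafg*, was past it, and with quantile normalization 2 were, *Mafg* and *Nfe2l1*. The groups did not overlap in FPKM for 6 of the 9, 3 higher and 3 lower, compared with 36.9% of all tested genes (20.0% higher and 16.9% lower). The median log2 fold change of the members was -0.01, beside 0.02 for all tested genes. In bulk RNA, fewer cells of a type and less RNA per cell cannot be told apart.

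**Figure D1:**
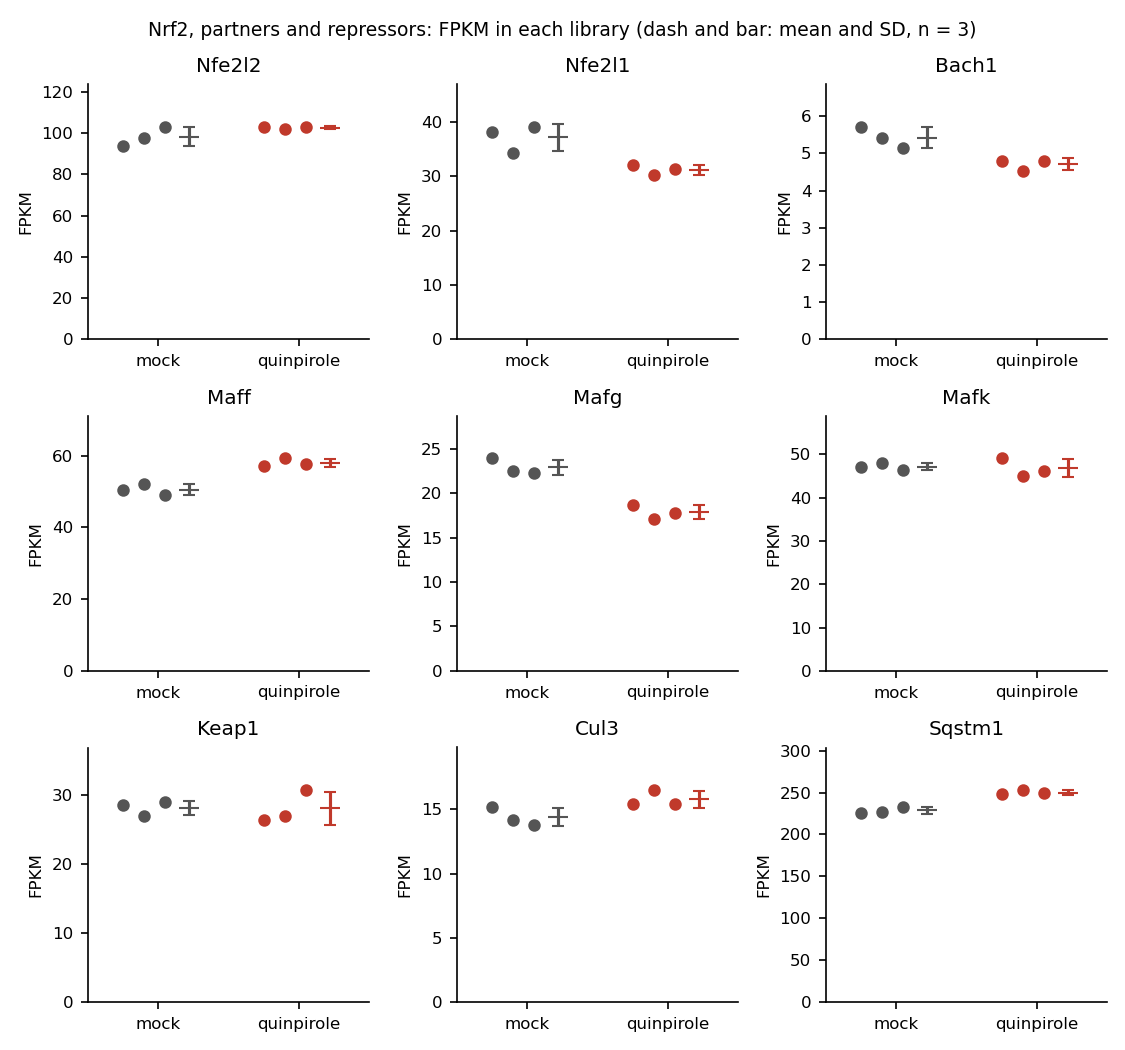
FPKM of the 9 genes on the vertical axes, 1 point per library, for mock (grey) and quinpirole (red), with the mean and SD of 3 libraries at the right of each group. *Maff*, *Sqstm1* and *Cul3* lie higher and *Mafg*, *Nfe2l1* and *Bach1* lower in every quinpirole library than in every mock library, whereas *Nfe2l2*, *Keap1* and *Mafk* overlap.

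*Nfe2l2* (chromosome 2, 75675513 to 75704641, GENCODE M21 on GRCm38) was among the more abundant mRNAs, above 94.6% of the tested genes in mock libraries. Its level was 93.9, 97.8 and 103 FPKM in mock libraries 1 to 3, and 103, 102 and 103 FPKM in quinpirole libraries 1 to 3. The highest mock library lay within the quinpirole range, so the groups overlapped. The means were 98.1 ± 4.41 and 103 ± 0.597 FPKM (SD, n = 3 libraries each). The log2 fold change was 0.07, with a 95% interval from -0.03 to 0.16 and an adjusted p of 0.288 from limma. With quantile normalization the value was -0.01.

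*Nfe2l1* (chromosome 11, 96817414 to 96829968), the relative that serves proteasome genes, fell. It had 38.2, 34.4 and 39.1 FPKM in the mock libraries and 32.1, 30.2 and 31.3 FPKM in the quinpirole libraries, which all lay below the lowest mock value. The means were 37.3 ± 2.50 and 31.2 ± 0.912 FPKM (SD, n = 3). On the log2 scale the difference was -0.25 (SE 0.055, adjusted p = 0.0383 from limma). Within each library, the ratio of *Nfe2l1* to *Nfe2l2* was 0.407, 0.352 and 0.381 after mock treatment and 0.311, 0.296 and 0.303 after quinpirole, so the balance of these relatives shifted toward *Nfe2l2* in all 3 quinpirole libraries. This ratio does not depend on a factor by which a whole library is scaled. The genes differ in length (5441 nucleotides of exon in *Nfe2l1*, 3796 in *Nfe2l2*), so a relation of the fold change to length enters it. The fitted length trend was -0.01 at the length of *Nfe2l1* and 0.03 at that of *Nfe2l2*. The change in *Nfe2l1* was no longer past the threshold after the correction for transcript length (-0.23, adjusted p = 0.0597 from limma). It was also lost when any 1 of the 6 libraries was left out, with adjusted p from 0.0647 (without mock 3) to 0.113 (without quinpirole 2).

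*Bach1* (chromosome 16, 87698945 to 87733346), the repressor, was the least abundant of the 9 genes. It had 5.71, 5.41 and 5.15 FPKM in the mock libraries and 4.80, 4.52 and 4.80 FPKM in the quinpirole libraries. Every quinpirole value lay below every mock value. The log2 fold change was -0.17 (95% interval from -0.31 to -0.03), with an unadjusted p of 0.0253 and an adjusted p of 0.107 from limma, so this difference did not pass the threshold. Among its 17 alternative settings the adjusted p lay between 0.084 and 0.267. The ratio of *Bach1* to *Nfe2l2* was 0.0608, 0.0553 and 0.0501 in the mock libraries and 0.0466, 0.0442 and 0.0465 in the quinpirole libraries. Length enters this ratio too, with 6179 nucleotides of exon and a fitted length trend of -0.03 for *Bach1*. About 628 to 881 fragments stood behind a *Bach1* value, as estimated from the longest transcript and the depth of the library, so counting alone gives an error of up to 4.0%, close to the variation between libraries of 5.20% in the mock and 3.49% in the quinpirole group.

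The small Maf genes held both the member with the largest log2 fold change, *Mafg*, and one of the smallest, *Mafk*. Small Maf proteins lack a transactivation domain and serve as obligate partners of the CNC factors. Between the transcripts of *Maff*, *Mafg* and *Mafk* the longest identical runs were short, which is shown because related genes can share reads.
Maff and Mafg: ggctacgcggccagctgccgcgt
Mafg and Mafk: cagcaggaggtggagaagctggc
Maff and Mafk: cggctgaagcagcggcg
The first and second of these runs are 23 bases long and the last is 17. None of the 50-base words of the longest *Maff* or *Mafk* transcript occurs in a transcript of another gene. Of those of *Mafg*, 1.54% do, all in *Sirt7*, whose exons overlap 124 bases of *Mafg* on the same strand.

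*Mafg* (chromosome 11, 120625117 to 120633600) fell. It had 23.9, 22.5 and 22.3 FPKM in the mock libraries, compared with 18.7, 17.1 and 17.8 FPKM in the quinpirole libraries. Every quinpirole value lay below every mock value. The means were 22.9 ± 0.870 and 17.8 ± 0.797 FPKM (SD, n = 3), a decrease of the mean by 22.0%. The log2 fold change was -0.34 (SE 0.050, adjusted p = 0.0225 from limma), and 4.46% of all tested genes differed by more in either direction. For the overlapping *Sirt7* the difference was -0.08 on this scale, with an adjusted p of 0.357 from limma. *Mafg* was also past the threshold after the correction for transcript length (-0.32, adjusted p = 0.0308), after correction for length and GC content (-0.30, adjusted p = 0.0388) and with quantile normalization (-0.35, adjusted p = 0.0242), each from limma. When mock 3 was left out the adjusted p was 0.0287, and when any other library was left out it lay over 0.05, up to 0.0905 without mock 2.

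*Maff* (chromosome 15, 79346621 to 79359076), whose transcription is known to respond to stress and inflammatory signals, rose. It had 50.5, 52.0 and 49.0 FPKM in the mock libraries and 57.2, 59.2 and 57.6 FPKM in the quinpirole libraries. All quinpirole values lay above all mock values. The means were 50.5 ± 1.51 and 58.0 ± 1.04 FPKM (SD, n = 3), an increase of the mean by 14.9%. Its log2 fold change was 0.20 (SE 0.038, adjusted p = 0.0278 from limma). It was 0.12 after the correction for transcript length (adjusted p = 0.114) and 0.15 with quantile normalization (adjusted p = 0.0647), neither past the threshold. When mock 3 was left out the adjusted p was 0.0465, and when any other library was left out it lay over 0.05, up to 0.0932 without mock 2.

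*Mafk* (chromosome 5, 139791513 to 139802653) had 47.0, 48.0 and 46.3 FPKM in the mock libraries and 49.0, 45.0 and 46.2 FPKM in the quinpirole libraries. The quinpirole values reached both above and below the mock range. *Mafk* differed by -0.01 on the log2 scale (95% interval from -0.11 to 0.09, adjusted p = 0.883 from limma).

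Because *Maff* rose and *Mafg* fell, the make-up of the small Maf mRNA differed between the groups while its total overlapped. The summed FPKM of the 3 genes was 121, 122 and 118 in the mock libraries, and 125, 121 and 122 in the quinpirole libraries. *Maff* made up 41.6%, 42.5% and 41.7% of that sum in the mock libraries and 45.8%, 48.8% and 47.4% in the quinpirole libraries. *Mafg* made up 19.7%, 18.3% and 19.0%, and after quinpirole 15.0%, 14.1% and 14.6%. For both shares the groups lay apart, whereas those of *Mafk*, 38.7% to 39.4% and 37.1% to 39.3%, overlapped. The ratio of *Maff* to *Mafg* was 2.11, 2.32 and 2.20 in the mock libraries and 3.06, 3.46 and 3.25 in the quinpirole libraries, an increase of the mean from 2.21 ± 0.101 to 3.26 ± 0.201 (SD, n = 3). These genes differ in length (2594 nucleotides of exon in *Maff*, 5613 in *Mafg*), so a relation of the fold change to length enters this ratio. The fitted length trend was 0.07 at the length of *Maff* and -0.02 at that of *Mafg*, beside log2 fold changes of 0.20 and -0.34. These ratios and shares are descriptions, and a permutation of 3 libraries against 3 was not run on them. The summed small Maf level relative to *Nfe2l2* was 1.14 to 1.29 in the mock and 1.18 to 1.21 in the quinpirole libraries, with overlap.

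**Figure D2:**
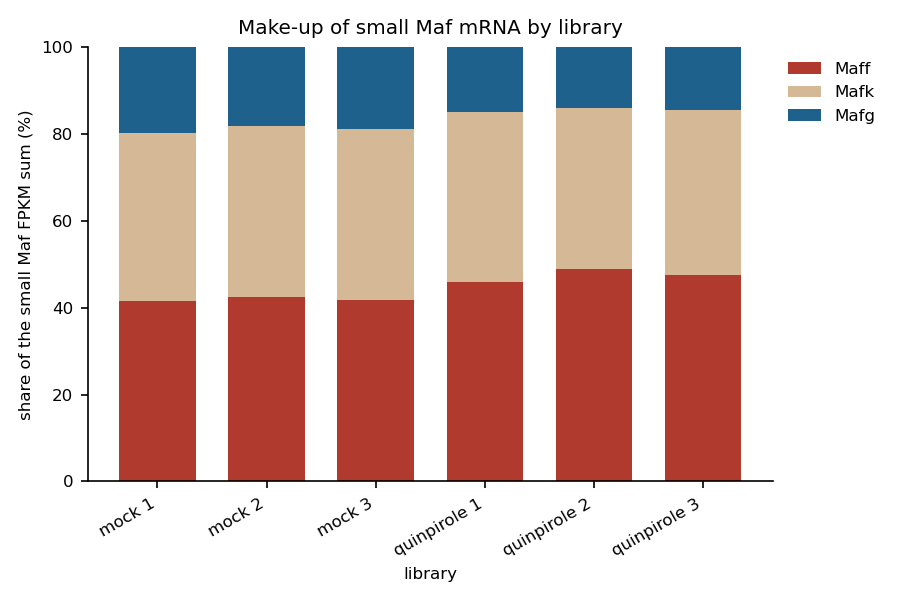
Share of each small Maf gene in the sum of the 3 FPKM values (vertical axis, percent), 1 bar per library. The *Maff* share is 41.6% to 42.5% in mock and 45.8% to 48.8% in quinpirole libraries, and the *Mafg* share is 18.3% to 19.7% and 14.1% to 15.0%.

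**Figure D3:**
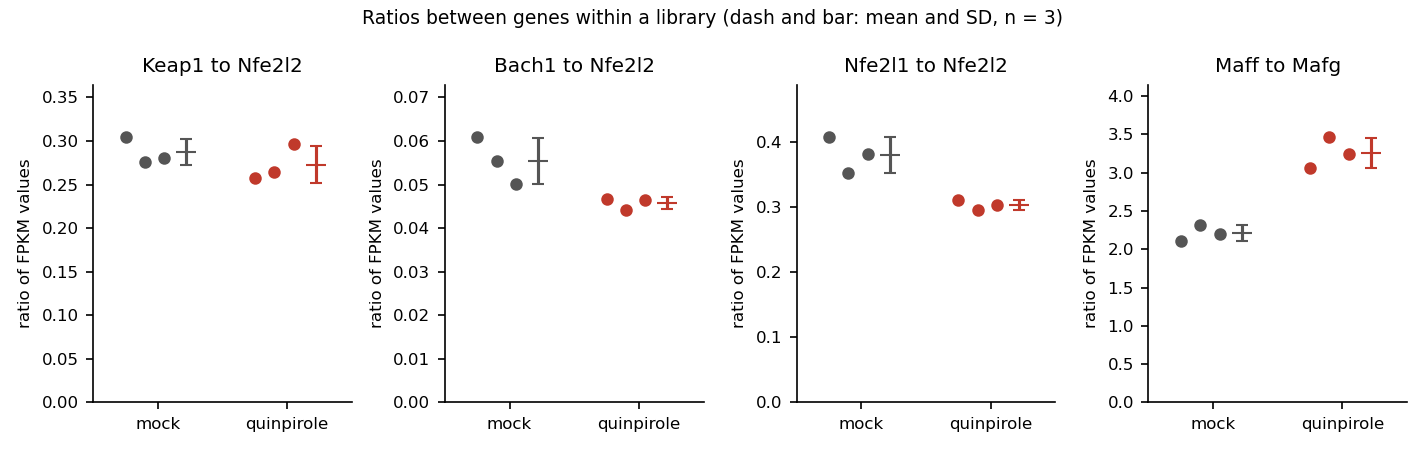
Ratios of FPKM values within a library (vertical axes, no unit), 1 point per library with the mean and SD of each group. The ratios of *Bach1* and of *Nfe2l1* to *Nfe2l2* are lower and that of *Maff* to *Mafg* is higher in all quinpirole libraries, and the ratio of *Keap1* to *Nfe2l2* overlaps.

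*Keap1* (chromosome 9, 21229730 to 21239361), the sensor and adaptor that holds Nrf2, did not differ detectably. It had 28.5, 27.0 and 28.9 FPKM in the mock libraries and 26.4, 27.0 and 30.7 FPKM in the quinpirole libraries. Quinpirole 3 was the highest of all 6 libraries and quinpirole 1 the lowest. Its log2 fold change was -0.01, with a 95% interval from -0.15 to 0.14 and an adjusted p of 0.945 from limma, and its sign changed among the alternative settings. The ratio of *Keap1* to *Nfe2l2* was 0.304, 0.276 and 0.281 in the mock libraries and 0.257, 0.264 and 0.297 in the quinpirole libraries, and the groups overlapped. An antisense gene, *Gm16754*, covers 10.9% of the *Keap1* exons and has no FPKM value among the genes listed.

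*Cul3* (chromosome 1, 80264923 to 80340480), the scaffold of the ligase, had 15.2, 14.2 and 13.8 FPKM in the mock libraries and 15.4, 16.5 and 15.4 FPKM in the quinpirole libraries. The groups did not overlap, but the gap between them was narrow. On the log2 scale *Cul3* differed by 0.12 (95% interval from -0.003 to 0.25), with an adjusted p of 0.167 from limma, so the difference did not pass the threshold. With correction for length and GC content it was 0.05.

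*Sqstm1* (chromosome 11, 50199366 to 50210827) encodes p62, which competes with Nrf2 for Keap1 and carries Keap1 to autophagosomes. It was the most abundant of the 9 mRNAs, above 98.1% of the tested genes in mock libraries. It had 226, 227 and 233 FPKM in the mock libraries and 248, 253 and 249 FPKM in the quinpirole libraries, with every quinpirole value above every mock value. The means were 229 ± 3.53 and 249.8 ± 2.72 FPKM (SD, n = 3), an increase by 9.30%. On the log2 scale *Sqstm1* differed by 0.13 (SE 0.032, adjusted p = 0.0471 from limma), but 0.01 with quantile normalization (adjusted p = 0.828) and 0.08 after the correction for transcript length (adjusted p = 0.107). The call was also lost when any 1 library was left out, with adjusted p from 0.0523 (without mock 3) to 0.149 (without mock 2). Exons of *Mrnip* on the opposite strand cover 17.3% of the *Sqstm1* exons, and the sources used here do not state a strand-specific count, so reads of the overlap cannot be told apart. *Mrnip* had 2.11 to 3.08 FPKM across the 6 libraries. The ratio of *Sqstm1* to *Keap1* was 7.92, 8.40 and 8.05 in the mock libraries and 9.37, 9.38 and 8.09 in the quinpirole libraries, and quinpirole 3, the library with the highest *Keap1*, lay within the mock range.

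**Figure D4:**
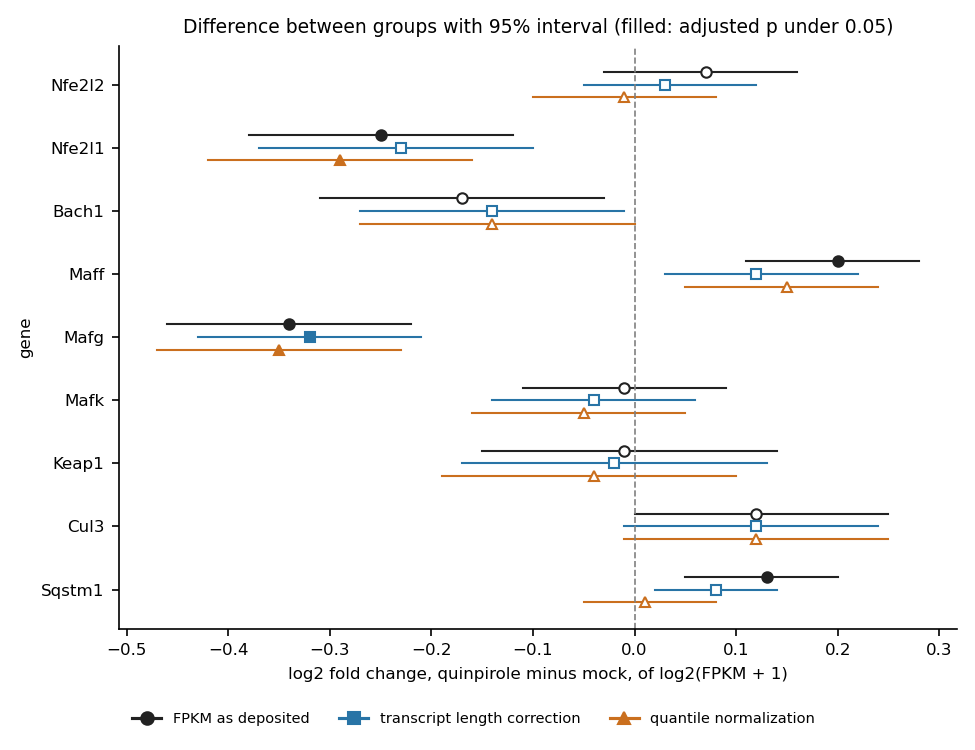
Log2 fold change (horizontal axis, quinpirole minus mock, on the log2(FPKM + 1) scale) with its 95% interval for each gene, for FPKM as deposited, after correction for transcript length and after quantile normalization. *Mafg* lies between -0.35 and -0.32 and is past the threshold (filled) in all 3, *Sqstm1* moves from 0.13 to 0.01, and *Nfe2l2* moves from 0.07 to -0.01.

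In the mock libraries the order of the FPKM levels was *Sqstm1*, *Nfe2l2*, *Maff*, *Mafk*, *Nfe2l1*, *Keap1*, *Mafg*, *Cul3* and *Bach1*, and no neighbours in this order overlapped. The order was the same after quinpirole, but there *Nfe2l1* (30.2 to 32.1 FPKM) and *Keap1* (26.4 to 30.7 FPKM) overlapped. Over the 6 libraries, the log2(FPKM + 1) values most like those of *Nfe2l2* were those of *Dynlt1f* (Pearson's r 0.996), *Taf1b* (0.995) and *Sirt2* (0.993), and those most like *Keap1* were *Slc4a3* (0.995), *Trim21* (0.989) and *Herpud2* (0.983). These are the highest correlations among all tested genes, over 6 points that share libraries and depth, and are given as a description.

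Fold changes were related to length across all genes, and this bears on the members because those that fell are longer than those that rose. In 20 groups of tested genes ordered by exonic length, the median log2 fold change went from 0.14 at a median of 957 nucleotides to -0.19 at 15336. *Maff* and *Sqstm1* have 2594 and 3356 nucleotides of exon, and *Nfe2l1* and *Mafg* have 5441 and 5613. The fitted trend at the length of each member lay between -0.03 (*Bach1*) and 0.07 (*Maff*). After it was subtracted, 1 of the 9 members (*Mafg*) was past the threshold, beside 4.16% of the 12223 genes with a length. The directions of all 9 members were unchanged by this correction.

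**Figure D5:**
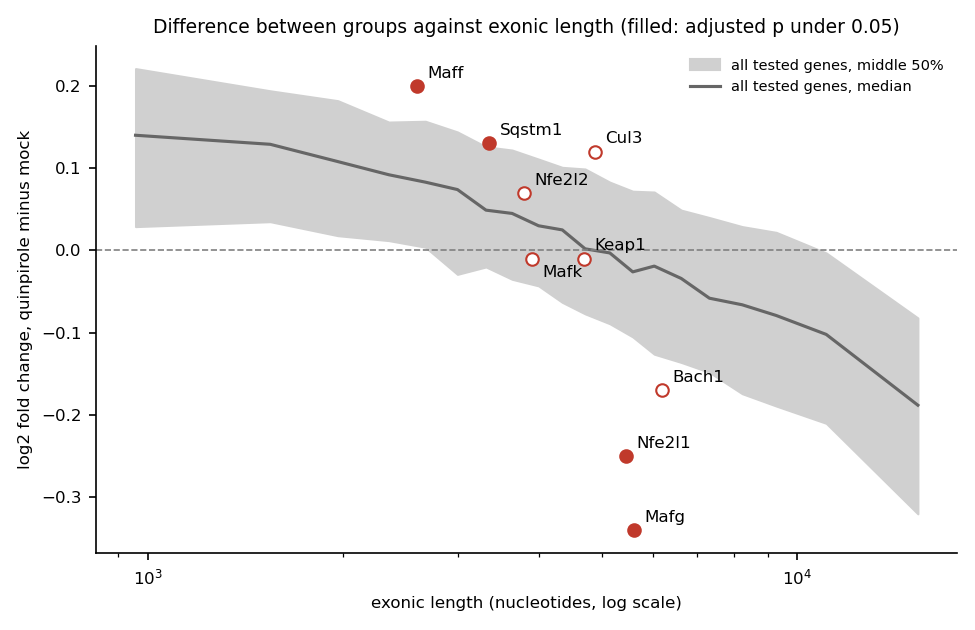
Log2 fold change (vertical axis, quinpirole minus mock) against exonic length in nucleotides (horizontal log axis) for the 9 genes, with the median and the middle 50% of all tested genes in 20 length groups. *Mafg* (-0.34), *Nfe2l1* (-0.25), *Bach1* (-0.17), *Maff* (0.20) and *Cul3* (0.12) lie outside the middle 50% of genes of like length. *Sqstm1* (0.13) lies at its upper edge, and *Nfe2l2* (0.07), *Keap1* and *Mafk* (both -0.01) lie within it. By definition, the other 50% of genes lie outside this band.

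The genes around Nrf2 were read from lists by role. Of the 19 partners of Keap1 and of the ligases that degrade Nrf2, 18 were tested, 2 rose and 0 fell, beside 10.9% of all tested genes past the threshold, so the list did not stand out. *Rbx1*, the RING subunit of the Cul3 ligase, had 40.0 ± 1.35 FPKM after mock treatment and 45.5 ± 0.874 FPKM after quinpirole (log2 fold change 0.18, adjusted p = 0.0377 from limma). *Dpp3*, a peptidase that binds Keap1, went from 29.9 ± 0.626 to 33.7 ± 1.05 FPKM (0.17, adjusted p = 0.0441). After the length correction the adjusted p was 0.0514 for *Rbx1* and 0.0423 for *Dpp3*. The median log2 fold change of the list was -0.06, beside 0.02 for all tested genes.

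Of the 15 coregulators, all were tested, 0 rose and 3 fell, beside 5.18% of all tested genes that fell. These were the acetyltransferase genes *Ep300* (13.4 ± 0.804 to 9.42 ± 0.570 FPKM, log2 fold change -0.47, adjusted p = 0.0225) and *Crebbp* (5.80 ± 0.649 to 4.08 ± 0.256 FPKM, -0.42, adjusted p = 0.0298), whose products bind the transactivation domains of Nrf2, and the chromatin remodeler gene *Chd6* (12.8 ± 0.954 to 9.72 ± 1.13 FPKM, -0.37, adjusted p = 0.0449), all from limma. These 3 have exonic lengths of 14273, 13540 and 19093 nucleotides, and after the length correction *Ep300* alone of the 15 was past the threshold (-0.30, adjusted p = 0.0308), beside 2.07% of all genes lower. *Pkm*, which encodes the pyruvate kinase studied here as a partner of Nrf2, had 635, 646 and 686 FPKM in the mock libraries and 654, 697 and 668 FPKM in the quinpirole libraries, with overlap (log2 fold change 0.04, adjusted p = 0.606 from limma). FPKM per gene do not tell the PKM1 and PKM2 isoforms apart.

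The 9 genes for the processing of Nrf1 were all tested, 1 rose and 2 fell, beside 5.74% and 5.18% of all tested genes. *Ngly1*, the N-glycanase that removes sugars from Nrf1 before it is active, rose from 11.6 ± 0.421 to 14.0 ± 0.202 FPKM (log2 fold change 0.25, adjusted p = 0.0258 from limma). The O-GlcNAc transferase gene *Ogt* (-0.29, adjusted p = 0.0274) and *Hcfc1*, a chromatin cofactor that Ogt modifies (-0.31, adjusted p = 0.0289), fell. All 3 were past the threshold after the length correction as well, with adjusted p from 0.0308 to 0.0469 from limma. With that correction *Rad23b* was also past it (0.14, adjusted p = 0.0494). This made 2 of the 9 higher and 2 lower, beside 2.09% and 2.07% of all genes. Proteasome subunits, the best-known targets of Nrf1, had 31 genes tested, of which 13 rose and 0 fell, beside 5.74% and 5.18% of all tested genes, with a median log2 fold change of 0.19 beside 0.02. *Psmd14* rose from 36.2 ± 0.572 to 44.1 ± 1.01 FPKM (0.28, adjusted p = 0.0225) and *Psmd8* from 114 ± 5.60 to 139 ± 1.40 FPKM (0.28, adjusted p = 0.0225), followed by *Psma3* and *Psmc6* (both 0.25). After the length correction 3 of the 31 were higher (2.09% of all genes) and the median was 0.10, and with quantile normalization 4 were (2.31% of all genes) and it was 0.11. The all-gene median was 0.01 in both.

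Of the 25 Nrf2 targets listed, 24 were tested, 8 rose and 0 fell, beside 5.74% and 5.18% of all tested genes, with a median log2 fold change of 0.11 beside 0.02. *Nqo1*, a quinone reductase, had 5.59, 5.54 and 5.33 FPKM in the mock libraries and 7.44, 6.97 and 7.41 FPKM in the quinpirole libraries (log2 fold change 0.35, adjusted p = 0.0236 from limma). The thioredoxin gene *Txn1* (0.29, adjusted p = 0.0236), the glutathione reductase gene *Gsr* (0.23, adjusted p = 0.0251) and the ferritin light chain gene *Ftl1* (0.30, adjusted p = 0.0251) also rose. *Hmox1*, the heme oxygenase gene and the best-known target of Bach1, had 135, 133 and 142 FPKM in the mock and 152, 154 and 147 FPKM in the quinpirole libraries, which did not overlap, and it was not past the threshold (0.14, adjusted p = 0.0600). *Gclc* (-0.02, adjusted p = 0.753) and *Gclm* (0.02, adjusted p = 0.787), the subunits of glutamate-cysteine ligase, overlapped between the groups. After the length correction 2 of the 24 targets were higher (2.09% of all genes) and the median was 0.06, and with quantile normalization 3 were (2.31% of all genes) and it was 0.04. These are calls of the same fit and the same libraries as those of the members. Over all lists other than the members, 32 genes were past the threshold in sum. Counted anew in each fit without 1 library, the number was 0 when mock 1, mock 2, quinpirole 1 or quinpirole 2 was left out. It was 7 without quinpirole 3 and 36 without mock 3.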

How the data were processed

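FPKM values, 1 for each gene of a library, were deposited by the authors. They trimmed adaptors and poor bases from paired-end reads, aligned them to GRCm38 with TopHat2 and retained alignments with at most 1 mismatch. The TopHat2 version and the program and annotation behind FPKM are not given in the sources used here. The library kit is not described as strand-specific. Gene identifiers were matched to symbols for 17090 of 17193 genes, and positions and exonic lengths came from GENCODE M21 (GRCm38).

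Groups followed the sample titles. Differences were tested with limma 3.58.1 in R 4.3.3 (lmFit, eBayes with trend, two-sided) on log2(FPKM + 1) for 12255 genes with a mean of at least 1 FPKM, with Benjamini-Hochberg adjustment over all of them. The added 1 understates fold changes of weakly expressed genes. The fit was tested on simulated data. For the length correction, a loess curve (span 0.3) of each library's deviations from the gene means against log2 exonic length was subtracted, for 12223 genes. A real change related to length would be removed too. A second step did the same for the GC content of the longest transcript. Depth was estimated from the steps of low FPKM values of 1254 genes with 1 transcript and at least 2000 nucleotides of exon (with a tolerance of 0.1 fragments, 60.9% to 67.0% of these values came out whole). The depth taken was that with the highest such share among the depths tried. At a depth fixed beforehand, 20.0% would come out whole by chance. Alternatives tried were quantile normalization, median ratio scaling, a minimum mean of 5 FPKM or none, an added 0.1 in place of 1, eBayes without trend or robust, a replicate block, the length correction, a change of at least 1.5 times and omission of each library in turn. The length and GC correction, the replicate block with the length correction and the alternatives for the pathway lists were added after the data had been seen.

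The members, the pathway lists and the tests were chosen with earlier results of these data known, and no list was tested as a set. Named are the 9 members, up to 4 genes per list past the threshold with the smallest p, *Pkm*, *Hmox1*, *Nqo1*, *Gclc* and *Gclm*, and for *Nfe2l2* and *Keap1* the 3 tested genes with the highest Pearson correlation over the 6 libraries. Relatives and markers under the threshold are named as members of their lists, and some list members are not reported here. Python 3.11.15, numpy 2.4.6, pandas 2.3.3 and matplotlib 3.10.9 were used.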

Additional observations from a re-analysis of the deposited data

How the results depend on the processing

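Against 4 members, 32 genes of the other pathway lists and 1339 of all tested genes past the threshold, the counts were 2, 18 and 633 with no filter on low values, 2, 16 and 783 with quantile normalization, 1, 16 and 714 with eBayes without trend, 1, 13 and 509 after the length correction, and 1, 9 and 375 after that for length and GC. Where a 1.5-fold change was required as well, 0 members and 38 of all tested genes passed. The replicate block left 0 members, 0 pathway genes and 2 of all genes, and the replicate block with the transcript length correction 0, 0 and 0, although 4 and 3 members and 3308 and 2723 of all genes had an unadjusted p under 0.05 in limma. The labels link same-numbered libraries by the number only and do not say whether they were prepared together. The correlations of their deviations were 0.026, -0.066 and -0.103, which cannot settle this. Leaving out single libraries gave 0 to 2 members, 0 to 36 pathway genes and 3 to 1215 of all genes. Why the counts differ was not examined, and the cause was not tested. Leaving out any library but mock 3 gave 0 members, with an unadjusted p under 0.05 for 4 or 5. A pseudocount of 0.1, a minimum mean of 5 FPKM and robust eBayes changed no call of a member. With median ratio scaling *Sqstm1* was lost (0.11).

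Of 153 log2 fold changes of members under the alternatives, 101 kept direction and side of the threshold, 44 lost significance and 8 changed sign. The 8 are small values of genes that were not called: *Nfe2l2* with quantile normalization (-0.01), *Keap1* with the length and GC correction (0.04), and single omissions, over which *Keap1* ranged from -0.07 to 0.03 and *Mafk* from -0.04 to 0.02. Without single libraries, the differences between group means ranged from -0.0123 to -0.00697 for *Bach1* to *Nfe2l2*, -0.0271 to -0.00634 for *Keap1* to *Nfe2l2*, -0.0908 to -0.0633 for *Nfe2l1* to *Nfe2l2* and 0.945 to 1.15 for *Maff* to *Mafg*. Depth is an estimate, and counting error was at most 4.0% for any member.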

Other observations

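Among other genes of the CNC and Maf families, the large Maf gene *Maf* had 17.3 ± 3.29 FPKM in mock and 14.6 ± 0.828 FPKM in quinpirole libraries (SD, n = 3). It was not past the threshold (log2 fold change -0.22, adjusted p = 0.244 from limma). *Maf* had 21.1 FPKM in mock 1 and 13.8 to 15.5 FPKM in the other 5 libraries. *Bach2*, the relative of *Bach1*, had 0.716 to 1.18 FPKM and *Nfe2l3* had 0.361 to 0.701 FPKM, while *Nfe2* and *Nrl* were listed at 0 in 5 of the 6 libraries each.

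Among 17 genes that act with p62 in selective autophagy, all tested, 1 rose and 2 fell, beside 5.74% and 5.18% of all tested genes. A higher mean after quinpirole was seen for 7 of the 17, and the median log2 fold change was -0.05, beside 0.02 for all tested genes. *Gabarap*, an ATG8 family protein that p62 binds, rose from 154 ± 4.86 to 185 ± 9.03 FPKM (log2 fold change 0.27, adjusted p = 0.0250 from limma). The autophagy kinase gene *Ulk1* fell from 13.5 ± 0.308 to 11.4 ± 0.307 FPKM (-0.23, adjusted p = 0.0293), and *Wdfy3*, which encodes a large scaffold for aggregate clearance, fell from 28.5 ± 3.18 to 19.9 ± 2.43 FPKM (-0.50, adjusted p = 0.0322). After the length correction, *Gabarap* (0.17, adjusted p = 0.0396) and *Ulk1* (-0.20, adjusted p = 0.0495) were past the threshold and *Wdfy3* was not (-0.31, adjusted p = 0.0788), all from limma, beside 4.16% of all genes past it.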
